A study of Mus musculus with 20 samples.

Results

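The genes of mouse chromosome 5 were compared between 4 clonal induced pluripotent stem cell (iPSC) lines, of which Nox4-/- #5-23 had a larger share of its RNA from this chromosome than the other 3. All genes of the chromosome (GRCm38) with a mean count of 50 or more over 20 libraries were taken, which kept 851 of the 3248 chromosome 5 genes in the table, and 13069 genes in all passed the same limit. The set was picked because this shift had been seen, so the ratios of Nox4-/- #5-23 to the other lines are a description, with no test of their size.

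RNA had been sequenced from embryoid body (EB) cultures, the aggregates in which pluripotent cells begin to form the germ layers, on days 0, 3, 5, 7 and 14. WT#1-4 and WT#20D-17 are wild type, and Nox4-/- #5-8 and Nox4-/- #5-23 come from mice without Nox4, an NADPH oxidase that makes hydrogen peroxide. The lines were fibroblasts of embryos reprogrammed with retroviruses carrying Oct4, Sox2, Klf4 and c-Myc, selected with puromycin, and grown with LIF on mitotically inactive feeder fibroblasts. EBs were formed in hanging drops without LIF and plated on gelatin. Each line is 1 clone with 1 library per day, so the 5 days of a line are not replicates of that line, and a difference between lines cannot be told apart from a difference between clones. The protocol label ends on day 10, but the sample titles give day 14, which is used here.

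Several checks of the labels bear on every ratio below. Nox4 had 0 to 2 counts in each of the 10 Nox4-/- libraries against 3 to 22 in WT#1-4 and 56 to 203 in WT#20D-17. Of the 7 pluripotency markers examined, Pou5f1 and Sox2 were found in every library of all 4 lines. Both (Pou5f1 encodes Oct4) were also carried by the retroviruses, and the part of vector RNA in their counts was not tested. Zfp42 had no count in WT#1-4, Nox4-/- #5-8 or Nox4-/- #5-23 on any day. Nanog stayed at or under 1.03 CPM in these 3 lines, against 383 CPM on day 0 in WT#20D-17. Esrrb and Dppa5a stayed at or under 2.22 CPM in them, while Tdgf1 reached 41.5 CPM in Nox4-/- #5-8. The 10 fibroblast markers summed to 3300 CPM in WT#20D-17 on day 14 and to at most 152 CPM in any library of the other lines. Most of that sum came from Col3a1, Col1a1 and Col1a2, at 1000, 951 and 582 CPM. Thy1, Twist1 and Prrx1 went the other way, at 2.57, 4.93 and 3.94 CPM against 35.4, 19.6 and 16 CPM in WT#1-4 on day 14. WT#20D-17 thus stands apart, and each ratio is given against each line separately. Its part in the results below was not tested. In bulk RNA, fewer cells of a type and less RNA per cell cannot be told apart.

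A eukaryotic gene's RNA level depends on its promoter, on the regulators of the cell and on how many copies of the gene are present. Pluripotent cells kept in culture are known to acquire changes of whole chromosomes, and neighbouring genes then tend to move together. Only RNA was measured here, from which copy number and transcription cannot be told apart.

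The promoter bases of 6 genes are shown because these genes mark the range of behaviour described below. Smurf1 and Shisa3 lay above the shared shift, Fscn1, Sowahb and Cldn4 lay below it, and Ran was not off it by the rule given later. Each run holds the 150 bases before the start of transcription, 5′ to 3′ on the strand of the gene, from RefSeq on GRCm38.p6, with CG dinucleotides in capitals. Smurf1 is at chr5:144965831-144965980, minus strand, Shisa3 at chr5:67607733-67607882, plus strand, Fscn1 at chr5:142960205-142960354, plus strand, Sowahb at chr5:93045023-93045172, minus strand, Cldn4 at chr5:134946935-134947084, minus strand and Ran at chr5:129020006-129020155, plus strand.
Smurf1: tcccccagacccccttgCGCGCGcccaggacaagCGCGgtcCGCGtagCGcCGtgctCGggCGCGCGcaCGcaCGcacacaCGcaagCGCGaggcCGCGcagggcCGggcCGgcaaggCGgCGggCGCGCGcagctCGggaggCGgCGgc
Shisa3: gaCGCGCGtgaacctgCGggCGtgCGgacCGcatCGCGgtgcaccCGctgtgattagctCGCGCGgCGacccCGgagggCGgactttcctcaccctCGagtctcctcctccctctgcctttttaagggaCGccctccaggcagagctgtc
Fscn1: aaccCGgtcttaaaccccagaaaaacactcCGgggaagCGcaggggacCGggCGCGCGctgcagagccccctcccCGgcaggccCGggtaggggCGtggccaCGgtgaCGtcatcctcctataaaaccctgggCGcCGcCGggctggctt
Sowahb: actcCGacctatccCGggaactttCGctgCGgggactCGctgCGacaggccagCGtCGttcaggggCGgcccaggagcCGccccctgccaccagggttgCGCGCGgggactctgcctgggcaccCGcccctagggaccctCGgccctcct
Cldn4: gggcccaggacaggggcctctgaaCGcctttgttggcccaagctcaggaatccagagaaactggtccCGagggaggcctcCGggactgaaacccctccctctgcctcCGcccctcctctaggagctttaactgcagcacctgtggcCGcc
Ran: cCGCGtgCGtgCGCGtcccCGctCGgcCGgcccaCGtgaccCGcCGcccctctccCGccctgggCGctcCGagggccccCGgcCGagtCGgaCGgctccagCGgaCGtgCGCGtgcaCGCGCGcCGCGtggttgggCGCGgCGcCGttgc
The runs of Smurf1 and Ran hold 30 and 31 CG pairs, that of Shisa3 18, those of Fscn1 and Sowahb 15 each and that of Cldn4 5. Over 300 bases, CG content was 0.738 and 0.685 of that expected for Fscn1 and Sowahb, and 0.324 for Cldn4. By the limit of 0.6 used below, a CG-rich promoter was thus found above the shift, below it and in a gene not off it. RefSeq promoters of 300 bases could be matched to 686 of the 851 genes. A CG content of at least 0.6 of that expected from the C and G content, searched as the letters CG, which read the same on both strands, was present in 15 of 23 promoters of genes below the shift (65.2%), in 2 of 3 above it and in 527 of 660 of the other genes (79.8%). Among all 27025 genes with a promoter in the table the share was 35.9%.

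Chromosome 5 genes as a whole were about 1.5-fold higher in Nox4-/- #5-23, and the size was alike against wild type and knockout lines. Ratios are log2 of TMM-scaled CPM with 0.1 CPM added, taken between libraries of the same day and recentred on the median of the 11745 genes of the other autosomes. On days 0, 3, 5, 7 and 14 the median over the 851 genes was 0.573, 0.603, 0.557, 0.605 and 0.624 against WT#1-4. Against WT#20D-17 the medians were 0.572, 0.585, 0.545, 0.556 and 0.482. Against Nox4-/- #5-8, which shares the genotype, they were 0.580, 0.566, 0.571, 0.558 and 0.546. The means of the 5 daily medians were 0.59 ± 0.03, 0.55 ± 0.04 and 0.56 ± 0.01 (SD over 5 days), which are 1.51-, 1.46- and 1.48-fold. All 15 medians thus lay between 0.482 and 0.624.

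The 3 other lines lay close to each other on this scale. The mean of the daily medians was 0.02 for Nox4-/- #5-8 against WT#1-4, 0.02 for WT#20D-17 against WT#1-4 and -0.01 for Nox4-/- #5-8 against WT#20D-17. No other autosome moved as far against all lines. Among the other 18, the mean farthest from 0 was -0.08 against WT#1-4 (chromosome 6) and -0.09 against Nox4-/- #5-8 (chromosome 7). Against WT#20D-17 it was -0.52 for chromosome 14 and -0.31 at most elsewhere, so WT#20D-17 has a shift of its own on another chromosome.

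**Figure D1:**
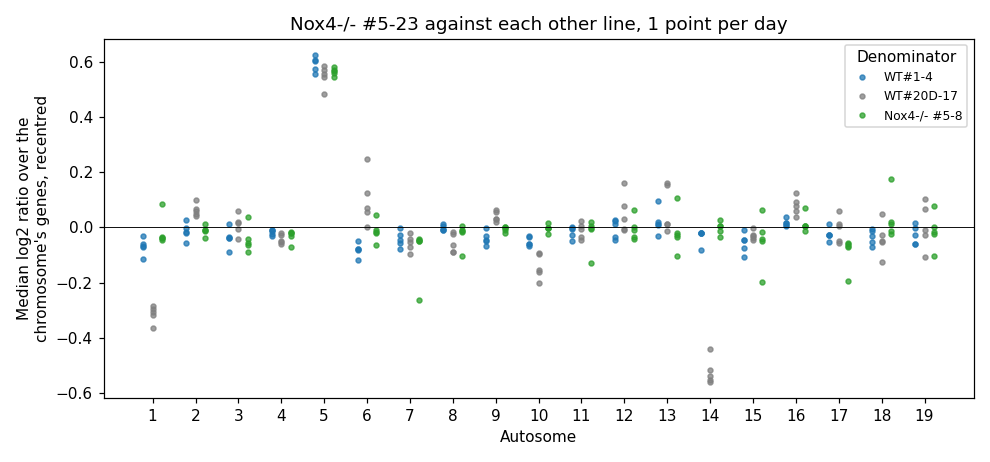
Median recentred log2 ratio of Nox4-/- #5-23 to each other line (vertical axis) over the genes of each autosome (horizontal axis), with 1 point per day and line compared. The 15 points of chromosome 5 lie between 0.482 and 0.624, and the grey points of chromosome 14 lie low only against WT#20D-17.

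Counts alone, with no scaling between libraries, showed the same order. Genes of chromosome 5 took 9.35%, 8.99%, 8.72%, 8.61% and 8.11% of the autosomal counts of Nox4-/- #5-23 on the 5 days. In WT#1-4 they took 6.45%, 6.17%, 6.16%, 5.91% and 5.78%. In Nox4-/- #5-8 the shares were 6.50%, 6.38%, 6.09%, 6% and 5.90%, and in WT#20D-17 6.13%, 5.78%, 5.81%, 5.69% and 5.37%. Every library of Nox4-/- #5-23 lay above all 15 others, and in all 4 lines the share was lowest on day 14 and highest on day 0.

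**Figure D2:**
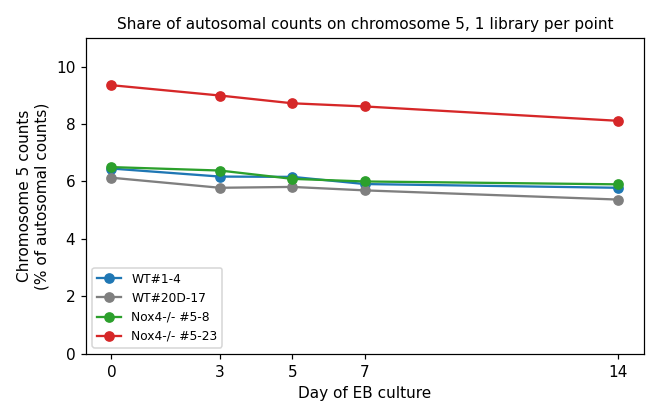
Counts on chromosome 5 as a percent of all autosomal counts (vertical axis, from 0) by day of EB culture (horizontal axis), with 1 library per point and 1 line per colour. Nox4-/- #5-23 runs from 9.35% to 8.11% and the other lines stay between 5.37% and 6.50%.

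The shift moved the whole distribution of genes and not a tail of it. Against Nox4-/- #5-8, 770 of 851 genes (90.5%) had a mean ratio above 0, beside 49.9% of the genes of the other autosomes. Against WT#1-4 the number was 746 (87.7%) and against WT#20D-17 it was 642 (75.4%). The spread around the median was no wider than elsewhere, with interquartile ranges of 0.474 and 0.519 for chromosome 5 and the other autosomes against WT#1-4. They were 1.03 and 1.18 against WT#20D-17, and 0.419 and 0.445 against Nox4-/- #5-8. Within 0.25 of the median lay 489 genes (57.5%) against Nox4-/- #5-8, 440 (51.7%) against WT#1-4 and 218 (25.6%) against WT#20D-17. All 15 ratios (3 lines by 5 days) were above 0 for 268 genes (31.5%), where 3.17% of genes on the other autosomes did this, and all 15 were below 0 for 10 genes (1.18%, beside 3.24%). Since the set was picked for this contrast, nothing is read from these shares beyond their size.

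**Figure D3:**
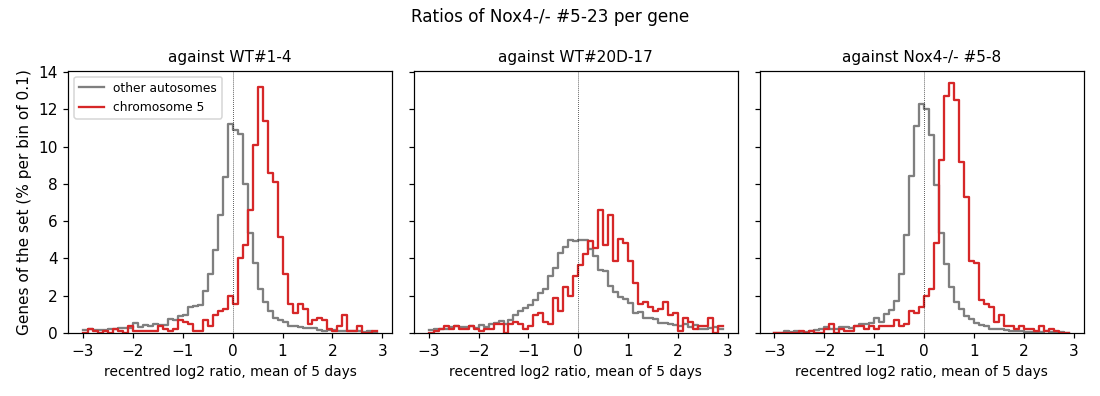
Percent of genes per bin of 0.1 (vertical axis) by recentred log2 ratio of Nox4-/- #5-23 to each other line, mean of 5 days (horizontal axis), for the 851 chromosome 5 genes in red and the 11745 genes of the other autosomes in grey. The red curve has the shape of the grey one and its median stands at 0.59, 0.54 and 0.57 in the 3 panels.

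With the genes in 4 bands of mean CPM, the median against Nox4-/- #5-8 was 0.49, 0.60, 0.57 and 0.58 from the lowest band (2.05 to 12.6 CPM) to the highest (80 to 3260 CPM). The interquartile range narrowed over the same bands from 0.795 to 0.327. Against WT#20D-17 the median was 0.37 in the lowest band and 0.59 in the highest, with interquartile ranges of 2.96 and 0.783. The lowest band also held 22 of the 32 genes found below the shift by the rule given later, and the others 7, 1 and 2. Protein coding genes, 780 in number, had medians of 0.59, 0.53 and 0.58 against WT#1-4, WT#20D-17 and Nox4-/- #5-8. The 19 pseudogenes had medians of 0.01, 0.03 and -0.23. Their counts depend on how the estimation divided reads with near-identical genes elsewhere, and the part of this in their ratios was not tested.

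The genes examined run from 3236431 to 151651242, and the gene at the lower end, the pseudogene Gm15772, was itself below the shift at -0.52, -0.04 and -0.59. In windows of 10 Mb the median was above 0 against all 3 lines in every window but the one from 10 to 20 Mb. The running median of 51 genes stayed between 0.36 and 0.74 against WT#1-4, between 0.10 and 0.93 against WT#20D-17 and between 0.43 and 0.73 against Nox4-/- #5-8. The exception at 10 to 20 Mb holds only 8 genes, with medians of -0.84, -0.46 and -0.19. Among them Sema3e, which encodes a guidance signal that binds plexin D1, had ratios of 0.07, 0.08 and 1.03, while Pclo, a presynaptic scaffold, had -4.80, -2.65 and -0.79 and Gnai1, an inhibitory G protein subunit, had -1.74, -2.13 and -1.01. Pclo and Gnai1 were named after their values were seen.

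**Figure D4:**
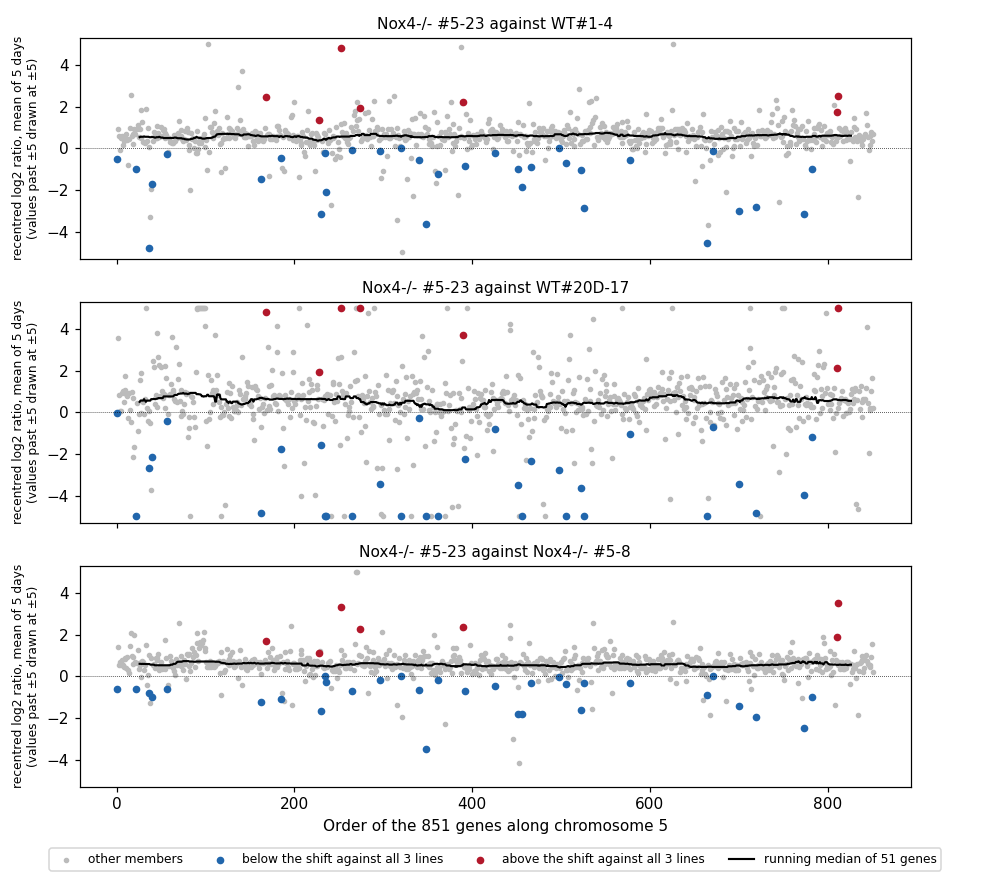
Recentred log2 ratio of Nox4-/- #5-23 to each other line, mean of 5 days (vertical axis, values past 5 drawn at 5), for the 851 genes in their order along chromosome 5 (horizontal axis). The black running median of 51 genes stays above 0 throughout, between 0.10 and 0.93 at the widest, and genes below the shift are drawn in blue and genes above it in red.

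Genes that did not follow the shift were defined by their distance from the median of all 851 genes on the same day. A gene was counted as off the shift against a line when its distance had 1 sign on all 5 days and a mean past 0.5, and as off the shift altogether when this held in the same direction against all 3 lines. Below the shift were 32 genes (3.76%, where the same rule around each chromosome's own median gave 2.44% on the other autosomes) and above it 7 genes (0.823%, beside 1.51%). The shares on chromosome 5 and elsewhere, here and against single lines, are not fully alike. A gene silent in both lines has a ratio near 0, which is past 0.5 from the chromosome 5 median but not from a median near 0. Of the 32, 6 were such genes in at least 1 comparison, and no matching filter was put on the other autosomes. Against WT#1-4 alone, 89 genes were below and 67 above (10.5% and 7.87%, beside 12.6% and 8.58% elsewhere). Against WT#20D-17 alone the numbers were 178 and 167 (20.9% and 19.6%, beside 21.8% and 21.8%). Against Nox4-/- #5-8 alone they were 76 and 70 (8.93% and 8.23%, beside 7.34% and 7.95%). None of the 3 comparisons placed 413 genes (48.5%) off the shift. Just inside the limit below were Slc34a2 and Ugt2b34, each with a smallest distance of 0.53, and just outside were Gtf2ird1 at 0.45 and Rpl5 at 0.39. Above, 9230114K14Rik stood just inside at 0.55 and Tmem132d just outside at 0.50.

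The 7 genes above the shift were Tmem156, Kpna7, Shisa3, Nat8l, Gbp4, Smurf1 and the noncoding 9230114K14Rik. They were picked by these same ratios, so the way their levels separate Nox4-/- #5-23 from the other lines is a description. Smurf1 (ENSMUSG00000038780, 144876495 to 144965847, minus strand), a ubiquitin ligase that marks Smad proteins of the BMP pathway for breakdown, was the most abundant of them. Its level in Nox4-/- #5-23 was 235, 278, 326, 328 and 291 CPM on days 0 to 14. In WT#1-4 it was 58.1, 63.2, 72.1, 94.3 and 178 CPM, in WT#20D-17 42.3, 47.3, 71.6, 72.3 and 123 CPM, and in Nox4-/- #5-8 60.8, 76.7, 86.4, 92.1 and 81.9 CPM. All 5 values of Nox4-/- #5-23 lay above the other 15. The log2 ratios were 1.75 ± 0.64, 2.11 ± 0.50 and 1.91 ± 0.04 (SD over 5 days) against WT#1-4, WT#20D-17 and Nox4-/- #5-8, well over the shared median.

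Kpna7 (ENSMUSG00000038770, 144983519 to 145084030, minus strand), an importin alpha that carries proteins into the nucleus of eggs and early embryos, is the next gene of the set along the chromosome, 17.7 kb from Smurf1. Nox4-/- #5-23 had 12.9, 17.9, 24.1, 17.1 and 21.1 CPM. WT#1-4 had 1.82 to 5.00 CPM, Nox4-/- #5-8 0.958 to 2.46 CPM and WT#20D-17 at most 0.105 CPM, which is under the 3 counts taken as the floor of detection (0.109 to 0.157 CPM). Every value of Nox4-/- #5-23 lay above those of the other lines. The genes on either side lay nearer to the shift: Trrap, a scaffold of histone acetyltransferases, had ratios of 0.36, -0.03 and 0.79, and Arpc1a, an Arp2/3 subunit that overlaps Kpna7 on the opposite strand, had 0.56, 0.19 and 0.54. Whether the counting used strand is not given in the sources used here.

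Shisa3, an adaptor that dampens Wnt and FGF receptors, had 146, 178, 171, 173 and 100 CPM in Nox4-/- #5-23, where WT#1-4 had 32.5 to 48.8 CPM, Nox4-/- #5-8 had 23.2 to 42.1 CPM and WT#20D-17 had 0.315 to 2.28 CPM. Atp8a1 overlaps it on the opposite strand and had ratios of 0.35, -0.96 and 0.96. Tmem156 had 7.25, 8.98, 11.8, 8.66 and 7.73 CPM in Nox4-/- #5-23, with at most 0.437 CPM in WT#1-4, 0.0436 CPM in WT#20D-17 and 0.927 CPM in Nox4-/- #5-8. Neither gene overlapped between Nox4-/- #5-23 and any other line. Nat8l, the enzyme that makes N-acetylaspartate, had 72.6, 39.6, 69.3, 41.9 and 81.4 CPM in Nox4-/- #5-23 and at most 30.6 CPM elsewhere.

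Gbp4, an interferon-induced guanylate-binding protein, differed from the others in its course. It had 4.83, 21.5, 41.9, 80.8 and 62.7 CPM in Nox4-/- #5-23, while the other lines stayed between 1.48 and 12.3 CPM, so that day 0 fell within the range of the other lines. Gbp9, a relative that overlaps Gbp4 on the same strand and was named after its values were seen, had ratios of 2.18, 2.47 and 2.32 beside 2.23, 3.69 and 2.36 for Gbp4. Reads of this family can be divided between members, so the value of each alone is uncertain. The noncoding 9230114K14Rik was nearest to the shift, with 8.75 to 16.3 CPM in Nox4-/- #5-23 and 2.26 to 7.43 CPM elsewhere, and ratios of 1.34, 1.95 and 1.11.

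Of the 32 genes below the shift, 26 could be read in all comparisons. The other 6, Tbx3, Slc34a2, Sel1l3, Ugt2b34, Fgf5 and Rbm47, had a mean of 3 counts or fewer in both lines of at least 1 comparison, so a gene that was silent in both lines sat at a ratio near 0 and below the shared median. Fgf5, a growth factor of the epiblast, shows this: it had no count in Nox4-/- #5-23, at most 0.336 CPM in WT#1-4 and 0.115 CPM in Nox4-/- #5-8, but 94.9, 70.2, 20.4, 29.6 and 1.63 CPM in WT#20D-17. Tbx3, a T-box regulator of pluripotent and limb cells, had 19.7 to 156 CPM in WT#20D-17, 0.496 to 1.41 CPM in WT#1-4 and at most 0.279 CPM in the Nox4-/- lines. Sel1l3 had 10.1 to 63.2 CPM in WT#20D-17 and at most 0.0365 CPM in Nox4-/- #5-23.

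Sowahb and Sdk1 were lower in Nox4-/- #5-23 than in any library of the other lines. Sowahb, an ankyrin repeat protein, had 0.0372, 0, 0.189, 0.0888 and 0.109 CPM in Nox4-/- #5-23, which is near the floor, against 1.06 to 2.92 CPM in WT#1-4, 1.48 to 2.37 CPM in Nox4-/- #5-8 and 4.84 to 26.2 CPM in WT#20D-17. Sdk1, a cell adhesion protein of synaptic layers, had 0.297, 0.0917, 0.302, 0.133 and 0.401 CPM against 1.39 to 8.79 CPM in the other 3 lines. Both genes were named for their low values in these same ratios, so this separation is a description and supports nothing further.

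Fscn1 (ENSMUSG00000029581, 142960343 to 142973185, plus strand), the actin bundling protein fascin, was the most abundant protein coding gene below the shift. Nox4-/- #5-23 had 152, 80.5, 91.6, 81.0 and 99.3 CPM. WT#1-4 had 177, 185, 197, 186 and 220 CPM, WT#20D-17 had 186, 234, 314, 222 and 175 CPM, and Nox4-/- #5-8 had 265, 231, 172, 142 and 213 CPM. On every day Nox4-/- #5-23 was the lowest, and its day 0 value exceeded only the day 7 value of Nox4-/- #5-8. Its ratios were -0.99 ± 0.43, -1.19 ± 0.60 and -0.99 ± 0.32 (SD over 5 days). Its neighbours Actb, 53.6 kb away, and Rnf216, 17.7 kb away, had -0.06, 0.23 and 0.27, and 0.39, 0.23 and 0.74.

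Cldn4, a claudin of epithelial tight junctions, had the lowest mean distance of all and separated the lines by steps. WT#20D-17 had 62.5 to 145 CPM, WT#1-4 had 0.608, 2.86, 4.59, 9.75 and 23.2 CPM, Nox4-/- #5-8 had 0.0798 to 0.578 CPM and Nox4-/- #5-23 had 0.0372 to 0.292 CPM. The Nox4-/- lines overlapped. Nyap1, a neuronal partner of PI3 kinase, had 0.372 to 2.71 CPM in Nox4-/- #5-23, 1.24 to 7.61 CPM in Nox4-/- #5-8, 2.20 to 25 CPM in WT#1-4 and 16.8 to 64.9 CPM in WT#20D-17. Cmklr1, the chemerin receptor, had at most 0.656 CPM in Nox4-/- #5-23 and 4.18 to 89.1 CPM in WT#20D-17.

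Another 5 of the 32 were processed pseudogenes. Among them Gm15459, named after its values were seen, had 397 to 1170 CPM in WT#20D-17 and at most 17.3 CPM in the other 15 libraries, with 3.02 to 13 CPM in Nox4-/- #5-23. The members next to the 32 genes along the chromosome, 63 in all when each side is counted, had a median ratio of 0.53 against Nox4-/- #5-8, and 2 of them, the adjacent Sel1l3 and Slc34a2, were also below the shift. Of the 14 neighbours of genes above it, all had ratios over 0 against Nox4-/- #5-8, beside 90.5% of all 851 genes. Their median was 0.88, and 2 were themselves above, which are Smurf1 and Kpna7. These count as each other's neighbours, Gbp9 overlaps Gbp4 on the same strand, and C130083M11Rik overlaps 9230114K14Rik. The median is therefore not independent of the genes above the shift, and nothing is read from it. Against the wild type lines some of these neighbours lay under 0. Fam114a1 had -0.40 and -1.57 against WT#1-4 and WT#20D-17, and Lrrc8b and Atp8a1 had -1.69 and -0.96 against WT#20D-17.

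**Figure D5:**
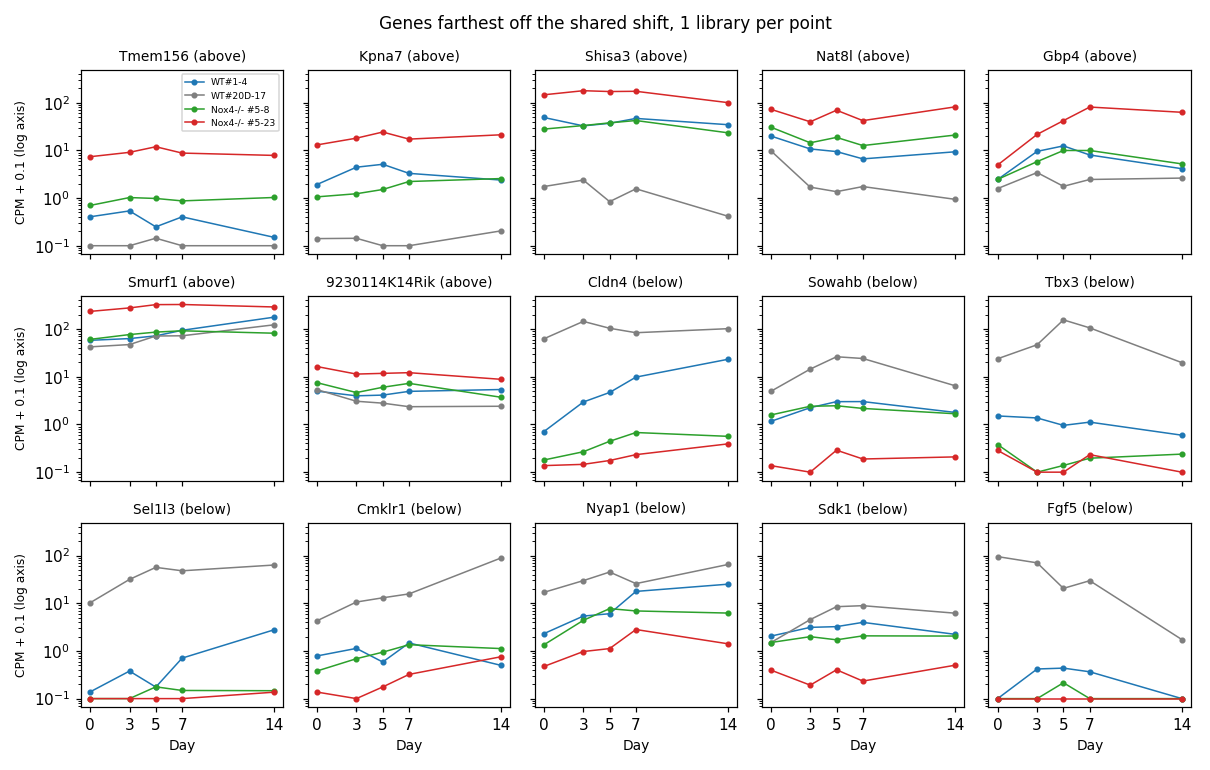
CPM plus 0.1 on a log axis (vertical) by day (horizontal) for the 7 genes above the shift and the 8 with the lowest mean distance below it, 1 library per point and 1 colour per line. Nox4-/- #5-23 is the highest line on every day in the first 7 panels, and the grey line of WT#20D-17 is the highest in nearly every point of the last 8.

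Of the 5 most abundant genes, 4 encode ribosomal proteins, and their mean ratios lay above 0 but mostly under the shared median. Rplp0, the stalk protein P0, had 4620, 4940, 4080, 3790 and 2940 CPM in Nox4-/- #5-23 and 3110 to 3430 CPM in WT#1-4. Its ratios were 0.30 ± 0.30, 1.02 ± 0.26 and 0.15 ± 0.46, and on day 14 it was lower than in WT#1-4 and in Nox4-/- #5-8, where it had 4840 CPM. Rpl6 had 0.41, 0.45 and 0.28, Rpl21 0.43, 1.13 and 0.23, and Rpl9 0.50, 0.38 and 0.42. All 5 ribosomal protein genes of the set, Rpl5 included at 0.20, 0.14 and 0.18, had mean ratios over 0 against every line. So did 598 of all 851 genes.

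Actb, cytoplasmic beta actin and a common reference gene, did not follow the shift against WT#1-4. It had 2630, 2240, 2400, 2080 and 1870 CPM in Nox4-/- #5-23 and 2200, 2300, 2200, 2310 and 2490 CPM in WT#1-4, which overlap, for a ratio of -0.06 ± 0.29. Against WT#20D-17 it was 0.23 ± 0.33 and against Nox4-/- #5-8 0.27 ± 0.21. Among 16 cytoskeleton and housekeeping genes, 13, 14 and 15 had ratios over 0 against WT#1-4, WT#20D-17 and Nox4-/- #5-8, with medians of 0.58, 0.60 and 0.50. Of all 851 genes, 87.7%, 75.4% and 90.5% did so. The counts of this list and of those below come from the contrast that chose the set, and are a description beside these shares. Ran, the GTPase of nuclear transport, had 0.90, 0.98 and 0.52. Its distance from the shift was 0.31 against WT#1-4, 0.44 against WT#20D-17 and -0.05 against Nox4-/- #5-8. The level of Ran fell over the days in every line, from 1490 to 565 CPM in Nox4-/- #5-23 and from 755 to 227 CPM in WT#1-4. Gusb, the lysosomal beta-glucuronidase, had 60.5 to 86.7 CPM in Nox4-/- #5-23 and 14.4 to 49.9 CPM elsewhere, with no overlap and ratios of 1.19, 1.72 and 0.98.

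All 19 genes of DNA replication, repair and mitosis were over 0 against Nox4-/- #5-8, beside 90.5% of all 851 genes, with a median of 0.45. Against WT#1-4 18 of 19 were over 0 (median 0.59, beside 87.7% of all genes) and against WT#20D-17 16 (median 0.26, beside 75.4%). Mcm7, a subunit of the replicative helicase, had 570, 519, 339, 257 and 132 CPM in Nox4-/- #5-23 and 352, 349, 341, 196 and 71.8 CPM in WT#1-4. Anapc5, a subunit of the anaphase-promoting complex, had 542 to 306 CPM from day 0 to day 14 beside 326 to 179 CPM, and ratios of 0.58, 0.88 and 0.42. Ung, which removes uracil from DNA, and Cit, a kinase of cytokinesis, lay farthest from the shift in this list, at -0.19, -0.92 and 0.15 and at 0.22, -0.88 and 0.31.

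Of 18 chromatin regulators, 17, 14 and 18 were over 0 (beside 87.7%, 75.4% and 90.5% of all 851 genes), with medians of 0.50, 0.39 and 0.76. Baz1b, a subunit of chromatin remodelling complexes, had 620, 451, 324, 288 and 230 CPM in Nox4-/- #5-23 and 349, 259, 259, 190 and 176 CPM in WT#1-4. Pds5b, a regulator of cohesin, had 159 to 175 CPM in Nox4-/- #5-23 and 48.6 to 117 CPM in the other lines, which do not overlap. Rest, a repressor of neuronal genes, had ratios of 0.11, -0.38 and 0.44.

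Of 6 receptor tyrosine kinase genes, 2 were over 0 against WT#1-4, 1 against WT#20D-17 and 4 against Nox4-/- #5-8 (medians -1.25, -4.75 and 0.65). Of all 851 genes, 87.7%, 75.4% and 90.5% were over 0. Ephb4, an ephrin receptor of veins, stood on the shift against WT#1-4 and Nox4-/- #5-8 with 0.63 ± 0.05 and 0.64 ± 0.16. Flt1, a VEGF receptor, had 2.42, 1.05, 2.57, 6.17 and 18.1 CPM in Nox4-/- #5-23 and 2.58, 24.7, 15.0, 74.1 and 36.9 CPM in WT#1-4, so it was near its WT#1-4 level on day 0 alone. Fgfr3, an FGF receptor, had 0.632 to 1.51 CPM in Nox4-/- #5-23 and up to 128 CPM in WT#20D-17.

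Of 7 matrix and secreted protein genes, 3, 0 and 5 were over 0 (beside 87.7%, 75.4% and 90.5% of all 851), with medians of -0.97, -2.73 and 0.54. Plod3, a lysyl hydroxylase of collagen, had ratios of 0.42, -0.81 and 0.54, and reached 657 CPM in WT#20D-17 on day 14, the library with the highest sum of fibroblast markers. Whether fibroblasts were present, and their part in the ratios to WT#20D-17, was not tested. Of 6 secreted signals, 3, 2 and 5 were over 0 (medians -0.51, -2.09 and 0.49), beside the same shares of all 851 genes.

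Pdgfa, a ligand of the PDGF receptors, was among these 6. It had 49.2, 43.4, 41.6, 43.8 and 44.8 CPM in Nox4-/- #5-23, where WT#1-4 had 5.39, 10.9, 8.43, 13.3 and 33.0 CPM, Nox4-/- #5-8 had 25.2, 19.4, 16.9, 19.6 and 33.7 CPM and WT#20D-17 had 25.2, 36.7, 41.1, 35.0 and 24.9 CPM. Nox4-/- #5-23 had the highest CPM on each day, by little on day 5, and after recentring 14 of its 15 ratios were over 0. Once the median of the chromosome is taken off, the distance of Pdgfa was 1.31 against WT#1-4, -0.08 against WT#20D-17 and 0.47 against Nox4-/- #5-8.

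Among 11 developmental transcription factors, 9, 7 and 9 were over 0, beside 87.7%, 75.4% and 90.5% of all 851 genes. Klf3, a repressor of the Krüppel-like family, had ratios of 0.29, 2.62 and 0.32, and Rbpj, the DNA-binding partner of Notch, 0.26, -0.08 and 0.62. In the region homologous to the human Williams-Beuren deletion, 12, 9 and 13 of 15 genes were over 0, beside 87.7%, 75.4% and 90.5% of all 851. Eif4h, a translation factor, had 0.45, 0.46 and 0.45, whereas Cldn3, a claudin beside Cldn4, had -3.68, -4.13 and 0.52. Cldn3 stood at 0.474 to 1.51 CPM in Nox4-/- #5-23 and 0.289 to 1.12 CPM in Nox4-/- #5-8, against 5.05 to 35 CPM in WT#1-4.

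A run of 10 neighbouring genes between 25935791 and 26105362, named after the values were seen, was silent in 1 line. It holds Speer4a and relatives, a mouse family of near-identical copies known from testis, whose reads cannot be assigned firmly to single genes, so their sum is given. It was 45.3, 52.5, 103, 75.5 and 169 CPM in Nox4-/- #5-23, 61.4, 74.3, 139, 81.0 and 18.0 CPM in WT#1-4, and 18.6, 14.2, 26.7, 36.3 and 85.7 CPM in Nox4-/- #5-8. In WT#20D-17 it was at most 0.0444 CPM in any library. None of the 10 was off the shift against all 3 lines.

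Contrasts between the other lines show how the same genes differed among them. The test was a quasi-likelihood fit in edgeR with day as a term, adjusted by Benjamini-Hochberg over 13069 genes, and p-values measure a difference against the line-by-day spread. It used all 20 libraries, so Nox4-/- #5-23 entered that spread and the day terms. Between Nox4-/- #5-8 and WT#1-4, 129 of 851 genes (15.2%) passed an adjusted p of 0.05, beside 17% of all genes tested, with 72 higher (8.46%, beside 7.38%) and 57 lower (6.7%, beside 9.6%) in Nox4-/- #5-8. The median log2 fold change was 0.05 for the set and 0.03 for all genes. Cldn4 and Cldn3 had log2 fold changes of -4.26 and -4.31 (adjusted p of 7.66e-05 and 6.43e-05, edgeR). Fzd10, a Wnt receptor, was 3.85 higher (SE 0.491, adjusted p = 5.53e-05, edgeR), and Tmem156 1.71 higher (SE 0.419, adjusted p = 0.0106, edgeR). With only the 10 libraries of these 2 lines in the fit, 106 of the 851 genes passed, 87 of them among the 129. The share over all genes in that fit is not given here.

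Between the wild type lines the number was 397 (46.7%, beside 52.1% of all genes), with 225 higher (26.4%, beside 27.2%) and 172 lower (20.2%, beside 25%) in WT#20D-17. Klf3 had a log2 fold change of -2.33 (SE 0.151, adjusted p = 3.94e-09, edgeR). All 10 genes of the Speer4a run were called lower. That run was named after it was seen to be silent in WT#20D-17, and its copies share reads. Those calls therefore add no support and are not separate results. Of the genes below the shift, 6 of 32 (18.8%, beside 15.2% of the 851) passed the test between Nox4-/- #5-8 and WT#1-4. Between the wild type lines 23 of 32 passed (71.9%, beside 46.7%). Of the 7 above it, 1 (14.3%) and 6 (85.7%) passed. Genes off the shift were chosen by ratios to these same 3 lines, some through high values in WT#20D-17, so nothing is read from these counts.

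Over the days, 296 of the 851 genes (34.8%) changed by the same tool with line as a term, beside 36.2% of all genes. On day 14, 133 of them stood above day 0 (15.6%, beside 18.3%) and 163 below it (19.2%, beside 17.9%), and the median change was -0.08 for the set and -0.01 for all genes tested. Of the 19 replication, repair and mitosis genes, 17 changed and all 17 fell. Among them Mcm7 fell by 1.95 (adjusted p = 4.5e-05, edgeR) and Ung fell by 2.78 on the log2 scale (adjusted p = 6e-06, edgeR). Of 18 chromatin regulators 6 changed, a number near the 34.8% of all 851 genes, and all 6 fell. Among 6 receptor tyrosine kinases 3 changed and all 3 rose, Flt1 by 3.94 (adjusted p = 0.00256, edgeR). All 3 of the 11 developmental transcription factors that changed also rose. Directions were mixed for cytoskeleton and housekeeping genes (2 rose, 4 fell), secreted signals (2 and 1), matrix and secreted proteins (1 and 1) and the Williams-Beuren region (1 and 4). Nothing is read from these small counts.

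The 3 largest rises came from WT#20D-17. Afp, the alpha-fetoprotein of yolk sac and fetal liver, went from 1.15 to 667 CPM in WT#20D-17 but was at most 1.24 CPM in WT#1-4 and 0.0482 CPM in the Nox4-/- lines. Cdx2, a regulator of trophoblast and hindgut, and Ugt2b34, a glucuronosyltransferase, likewise reached 18.2 and 49.4 CPM only in WT#20D-17, and Ugt2b34 was listed at 0 in all 15 other libraries. Fzd10 went from 30.1 to 2.99 CPM in Nox4-/- #5-23 and from 9.10 to 0.232 CPM in Nox4-/- #5-8, and Crmp1, a mediator of semaphorin signals, from 63.7 to 9.37 CPM and from 81.1 to 8.58 CPM. Fgf5 was the other of the 3 largest falls, through WT#20D-17.

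A change with day in the difference between Nox4-/- #5-23 and the other lines was also fitted. It uses the same libraries as the ratios that chose the set, with 1 library per line and day, so it supports nothing about them. In edgeR's quasi-likelihood test of a slope, 0 of the 851 genes passed an adjusted p of 0.05, as against 3 of 13069 genes (0.023%). An unadjusted p under 0.05 was found for 94 of the 851 (11%). The share over all genes is not given here, so nothing particular to chromosome 5 is read from it. The order of the days in place of the day number also gave 0. This does not show that the ratios were the same on all days.

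The days were pooled in edgeR's exact test between WT#1-4 and both Nox4-/- lines at an FDR of 0.01. Since 5 of the 10 knockout libraries are those that defined the shift, the counts are a description. Higher in the knockout libraries were 51 of the 851 genes (5.99%, beside 2.88% on the other autosomes) and lower were 20 (2.35%, beside 5.3%). With Nox4-/- #5-8 alone as the knockout, 25 were higher (2.94%, beside 2.49%) and 24 lower (2.82%, beside 4.33%). With Nox4-/- #5-23 alone, 199 were higher (23.4%, beside 3.35%) and 19 lower (2.23%, beside 4.89%), counts that rest wholly on the libraries that chose the set. Of the 51 genes, 22 were also higher with Nox4-/- #5-8 alone.

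At the lower limit of the set, Abcb1a, Tmem132c and Svop entered with mean counts of 50, 50.2 and 52.65 and ratios against Nox4-/- #5-8 of -0.02, -0.12 and 1.58. Kcnh2, Gm10461 and Brdt, with 49.7, 49.45 and 48.95, stayed outside and had -0.23, -0.02 and 0.67.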

How the data were processed

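The authors made stranded mRNA libraries, trimmed paired-end reads, mapped them with STAR 2.6.0c to mm10 (GRCm38) and estimated gene-level values with RSEM 1.3.1 (versions from the submitters' processing notes). They deposited expected counts without normalization, of which 9.92% had decimals because shared reads are divided. Whether RSEM used strand is not given in the sources used here. Here, expected counts were rounded and analysed with edgeR 4.0.16 (in R 4.3.3), with DESeq2 1.42.0 as an alternative and limma 3.58.1 loaded by edgeR. Of 55573 gene identifiers, 55480 were found in GENCODE M21. Library totals were 20294968 to 27708023 counts, so that 3 counts, the floor, were 0.109 to 0.157 CPM, which covers counting error only.

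CPM values were TMM-scaled. Tests used quasi-likelihood fits to all 20 libraries with line and day terms, where a day is the block that labels share across lines, and the pooled exact test ran on the 33860 genes with a nonzero value in any library. Scripts were tested on simulated data. Alternatives changed the normalization, filter, pseudocount, limits, tool and days.

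The members and lists were chosen with earlier results of these data known. Named genes were the 8 lowest and 8 highest off the shift (7 existed), the 5 of highest CPM, Pdgfa, up to 4 a list (2 by CPM, 2 by distance), the 3 largest rises and falls over days, and 3 genes on each side of the count limit. All promoters printed were of such genes. The results of 2 genes that the rule names are not reported here.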

Additional observations from a re-analysis of the deposited data

Results flagged for a closer look

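Among 82 sets of 5 values (the medians, the count shares, and the CPM of reported genes off the shift in each line), 8 held a value far from the other 4 by Dixon's ratio, where chance gives about 1 in 20. In WT#20D-17 these were Nat8l at 9.75 CPM and 9230114K14Rik at 5.29 CPM on day 0, Tmem156 at 0.0436 CPM on day 5, which is under the floor of 3 counts, and Cmklr1 at 89.1 CPM on day 14. The fibroblast markers of that day 14 library summed to 3300 CPM, and their part in the Cmklr1 value was not tested. Sel1l3 stood at 2.68 CPM on day 14 in WT#1-4 and at 0.0365 CPM on day 14 in Nox4-/- #5-23, and Fgf5 at 0.115 CPM on day 5 in Nox4-/- #5-8. Fscn1 was at 152 CPM on day 0 in Nox4-/- #5-23, above the 80.5 to 99.3 CPM of its other days, and it was still the lowest of the 4 lines that day.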

How the results depend on the processing

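The median ratios kept their sign and moved by less than 1 SD under upper quartile or RLE normalization and a mean count of 200. A pseudocount of 1 CPM gave 0.56 against WT#1-4 and 0.53 against Nox4-/- #5-8, and without recentring the latter was 0.53. Leaving out each day in turn gave 0.584 to 0.601, 0.539 to 0.564 and 0.560 to 0.569 against WT#1-4, WT#20D-17 and Nox4-/- #5-8. Genes off the shift depended on the limits: a mean count of 200 left 16 below and 4 above, a distance of 0.25 gave 18 above and a distance of 1 gave 16 below. Against 1 line alone, 89 and 67 (WT#1-4), 178 and 167 (WT#20D-17) or 76 and 70 (Nox4-/- #5-8) were below and above. Counting only genes with a mean over 3 counts in 1 or both lines of each comparison, a choice made after seeing the data, left 26 below and 7 above. Leaving out a day gave 31 to 44 below and 7 to 20 above, with 20 without day 0 and 13 without day 14. At an adjusted p of 0.01, 187 genes changed over days and 60 differed between Nox4-/- #5-8 and WT#1-4. Without the replicate block (day), 73 genes differed between Nox4-/- #5-8 and WT#1-4, and the call between wild type lines stayed within 1.5 times. Leaving out a day gave 172 to 276 genes that changed over days (172 without day 0), 60 to 125 between Nox4-/- #5-8 and WT#1-4 (78 without day 3, 60 without day 7), 316 to 458 between the wild type lines and 0 to 0 for the slope. The pooled count of 71 became 218 with Nox4-/- #5-23 alone, 299 with WT#20D-17 as wild type and 160 with the quasi-likelihood test. The causes were not tested. Of 106 alternative values, 82 stayed within 1.5 times or 1 SD. Each genotype has only 2 lines, and no test with the line as the unit was made here. Genes near 3 counts carry wide error.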
